A study of Mus musculus with 8 samples.

Results

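A set of 9 genes of B cells, plasma cells and IgA transport were read in mouse colon tumors and normal colon: Cd79a, Cd79b, Ms4a1, Blk, Igj, Tnfrsf17, Pou2af1, Sdc1 and Pigr. They were chosen by name, as every array probe whose gene name is one of these symbols or an older alias, which gave 11 probes for 9 of the 27597 genes named on the arrays. Igj, now called Jchain, and Ms4a1 had 2 probes each and the other 7 genes had 1. All 11 probes passed the filter on dim signals, and none was saturated in the scanner files that could be matched to a sample.

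B cells recognise antigen through a surface antibody whose signal is carried by the chains Cd79a and Cd79b. In the gut many of them become plasma cells that secrete IgA, joined into dimers by the J chain that Igj encodes. The polymeric immunoglobulin receptor, Pigr, sits on the basal side of the epithelium, binds J chain-containing antibody and carries it across the cell into the lumen. A gene set of this kind therefore spans lymphocytes of the lamina propria and lymphoid follicles on one side and the epithelium on the other.

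The data are one-colour Agilent arrays of total RNA labelled with Cy3, 1 array per sample, from 4 colon tumors and 4 normal colons of C57BL/6 mice. The 4 tumors were colon adenomas with the genotype Tcf4Het ApcHet, and the 4 normals were normal colon with the genotype TCF4WT ApcHet. All 8 therefore carried a mutant copy of Apc, which the protocol names as the Min allele, and the mice were littermates whose distal 2.5 cm of colon was collected. Tumor tissue and loss of 1 copy of Tcf4 go together in every sample, so their contributions cannot be told apart. The titles call all 8 samples adult. Neither a more exact age nor the way a tumor was separated from the mucosa around it was stated. The 4 tumors and 4 normals are separate tissue samples, and 4 arrays per group limit the precision.

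Values are the authors' log2 expression values, taken as quantile-normalised, a step that gives each array the same distribution. A difference is the mean of the tumors minus the mean of the normals on the log2 scale, with its standard error (SE) and an adjusted p from limma, a linear model fitted over all 31871 probes kept, with Benjamini-Hochberg adjustment over those probes. A probe was kept when at least 4 of the 8 arrays were at or above 5.59, the level under which signals were mostly not well above background. A gene is called higher or lower when its adjusted p is under 0.05, and where a gene has several probes the brightest stands for it in counts of genes. Over the 21638 genes tested, 13.8% were called, 6.64% higher and 7.14% lower in the tumors, and the median difference was 0.15.

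Some facts of the series bear on every value below. Tcf7l2, the current name of Tcf4, had 12.99, 12.70, 12.33 and 13.20 in tumors 1 to 4, against 14.42, 14.85, 14.19 and 14.79 in normals 1 to 4, a difference of -1.75 ± 0.24 (SE, adjusted p = 0.0145). Only 4 of the 8 columns of the value table matched a deposited scanner file. Only that of tumor 1 matched the file under its own sample's name. The columns of normals 1 and 2 matched files under normals 2 and 3. The column of tumor 2 matched a file under normal 4, so column and file disagree on whether that array is a tumor. Samples are taken here by the column labels. Normal 3 stood apart: its level lay outside the range of the other 3 normals in 77.7% of genes. Any normal lies outside the range of the others in some genes, and that share was not computed for the other normals. Its mean over 12 small intestine marker genes was 12.29, against 10.18 to 11.09 in the other normals, and its mean over 8 smooth muscle markers was 14.09, against 15.05 to 16.32. Values of the 9 genes and counts of the lists are therefore given with and without normal 3, and without it 51.5% of genes were called, 31.7% higher and 19.7% lower. Calls also hang on which array is left out: leaving out tumor 3 left 1 gene called and leaving out normal 4 left 30.

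Of the 9 genes, 1 was called in the full comparison, against 13.8% of all genes. Sdc1 was higher in the tumors, and Pigr had the largest difference of the 9, downward, but missed the threshold. Without normal 3 there were 4 genes called, against 51.5% of all genes: Cd79a and Sdc1 higher, Ms4a1 and Pigr lower. The groups did not overlap in 1 of the 9 genes with all arrays, against 23.8% of all genes, and in 4 of 9 without normal 3, against 55.3%. None of these 4 shares of the 9 genes was above that of all genes. In tissue RNA of this kind, fewer cells of a type and less RNA per cell cannot be told apart.

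**Figure D1:**
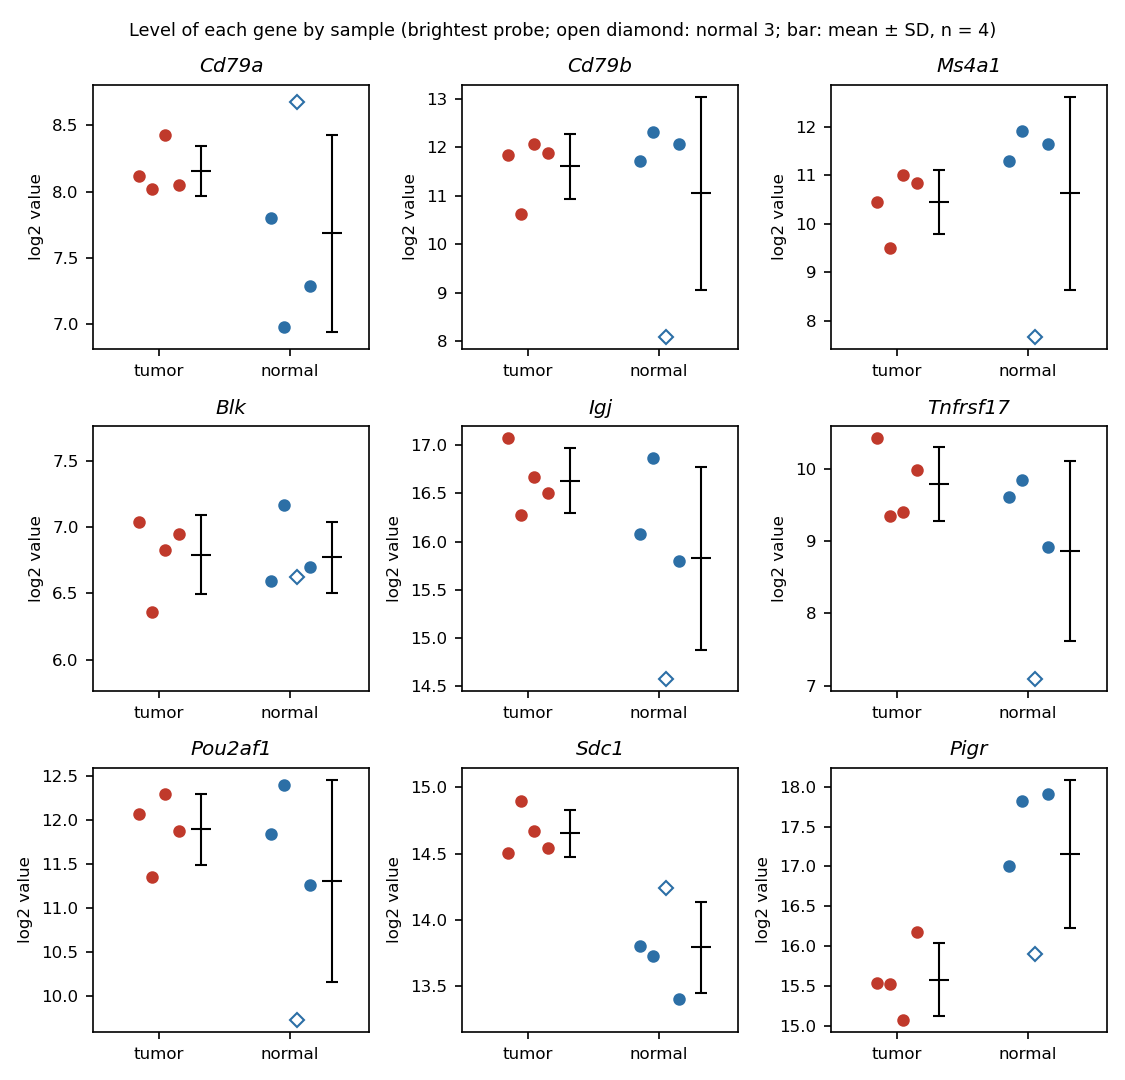
Level of each of the 9 genes by sample, as log2 value of its brightest probe, with tumors in red at the left and normals in blue at the right; bars are mean ± SD over n = 4, the open diamond is normal 3, and each panel has its own vertical range. Normal 3 lies below the other 3 normals for Cd79b, Ms4a1, Igj, Tnfrsf17, Pou2af1 and Pigr and above them for Cd79a and Sdc1.

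The first group of genes belongs to the B cell surface and its signalling. Cd79b, the signalling chain of the B cell receptor that pairs with Cd79a, was measured by a probe at chr11:106127556-106127615 (mm8, the build of the file headers). Its levels were 11.85, 10.62, 12.07 and 11.89 in tumors 1 to 4, against 11.73, 12.33, 8.08 and 12.08 in normals 1 to 4. Tumor 2 and normal 3 were the low samples of their groups, and the groups overlapped. The difference was 0.55 ± 0.93 (SE, 95% interval -1.61 to 2.72, adjusted p = 0.662). Without normal 3 its sign turned, to -0.44 ± 0.37 (adjusted p = 0.346).

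Ms4a1 encodes CD20, a surface protein of mature B cells that plasma cells lose. Its brighter probe, at chr19:11317922-11317981 (mm8), had 10.46, 9.51, 11.003 and 10.84 in tumors 1 to 4, against 11.29, 11.92, 7.66 and 11.65 in normals 1 to 4. Every tumor lay below normals 1, 2 and 4, and normal 3 lay below every tumor. With all arrays the difference was -0.18 ± 0.93 (SE, 95% interval -2.34 to 1.99, adjusted p = 0.893), and without normal 3 it was -1.17 ± 0.37 (adjusted p = 0.0355). The dimmer probe, at chr19:11318382-11318441, gave the same picture, with 8.87, 8.42, 9.44 and 9.29 in the tumors and 9.71, 10.002, 7.66 and 9.76 in the normals. Its difference was -0.28 ± 0.53 (adjusted p = 0.703), and -0.82 ± 0.26 without normal 3 (adjusted p = 0.0358).

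Cd79a, the other signalling chain of the receptor, did not run with Cd79b. Its probe, at chr7:24608094-24608351 (mm8), had 8.12, 8.02, 8.43 and 8.05 in tumors 1 to 4, against 7.80, 6.98, 8.68 and 7.28 in normals 1 to 4. Normal 3, the lowest array for Cd79b, was the highest for Cd79a. The difference was 0.47 ± 0.35 (SE, 95% interval -0.35 to 1.29, adjusted p = 0.332), and without normal 3 it was 0.80 ± 0.22 (adjusted p = 0.0238), with no overlap between the groups.

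The Cd79a probe was dim, flagged well above background in 3 of the 4 scanner files that match a column. Over the 8 arrays its profile, each gene minus its own mean, was closest to those of NAP057043-1, BM216128 and Oxct2a, with root mean square differences of 0.066 to 0.070 where the median over all genes was 0.660. Those 3 probes were dim as well, between 5.72 and 8.79 on every array. Olfactory receptor genes, which colon is not known for, moved in the same way. Over the 621 genes whose symbols open with Olfr the median levels were 7.85, 7.41, 7.98 and 7.53 in tumors 1 to 4, against 7.25, 5.72, 8.12 and 5.85 in normals 1 to 4. Their median difference was 1.11, and 1.63 without normal 3. The part of this shift of dim signals in the difference of Cd79a was not tested.

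Blk, a Src family kinase of B cells, was measured at chr14:62332606-62333743 (mm8) with 7.04, 6.36, 6.83 and 6.95 in tumors 1 to 4, against 6.60, 7.17, 6.62 and 6.70 in normals 1 to 4. The groups overlapped throughout. Its difference was 0.02 ± 0.21 (SE, 95% interval -0.46 to 0.50, adjusted p = 0.944), and it was -0.03 without normal 3. This probe, too, was well above background in 3 of the 4 matched files.

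**Figure D2:**
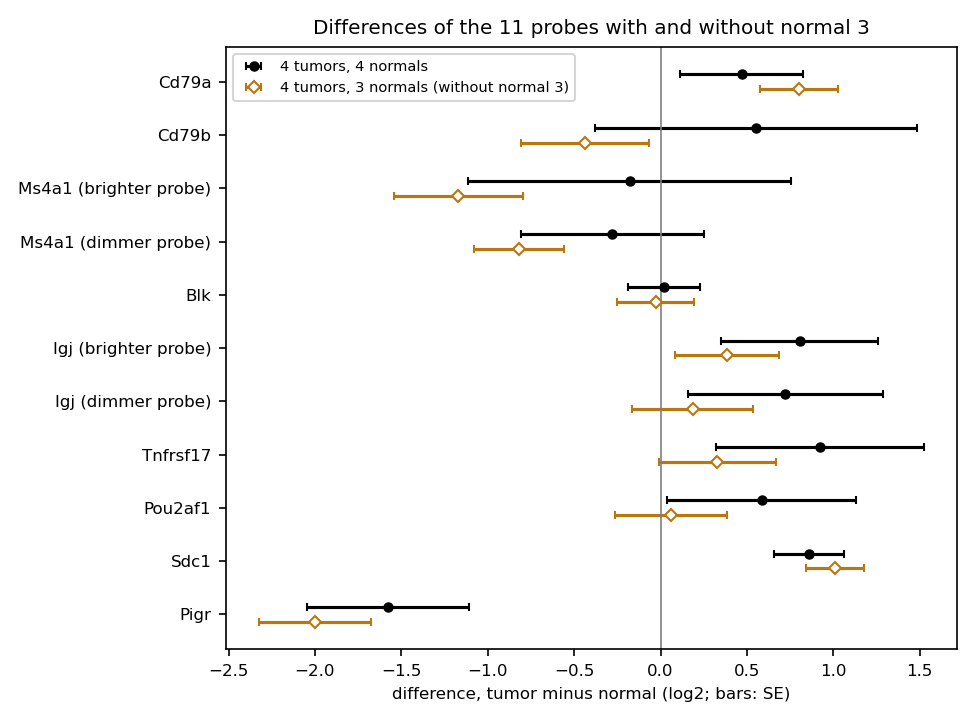
Difference, tumor minus normal on the log2 scale, for each of the 11 probes, with all 8 arrays (black) and without normal 3 (orange); bars are 1 SE. Removing normal 3 turns Cd79b to -0.44 and takes the brighter Ms4a1 probe to -1.17, while Sdc1 stays near 0.86 to 1.01 and Pigr stays below 0.

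The second group marks plasma cells. Igj encodes the J chain, which joins IgA dimers and IgM pentamers and is needed for their binding to Pigr. Its brighter probe, at chr5:89595455-89595514 (mm8), had 17.07, 16.28, 16.67 and 16.50 in tumors 1 to 4, against 16.07, 16.86, 14.57 and 15.80 in normals 1 to 4. Normal 2 lay among the tumors and normal 3 far below them. The difference was 0.80 ± 0.46 (SE, 95% interval -0.25 to 1.86, adjusted p = 0.223), and 0.39 ± 0.30 without normal 3 (adjusted p = 0.309). The dimmer probe, at chr5:89595625-89595684, had 16.10, 15.07, 15.68 and 15.49 in the tumors and 15.21, 16.10, 13.25 and 14.89 in the normals. It differed by 0.72 ± 0.57 (adjusted p = 0.348), and by 0.19 without normal 3.

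Tnfrsf17 encodes BCMA, a receptor for the survival factors BAFF and APRIL that plasma cells carry. Measured at chr16:11233530-11233589 (mm8), it had 10.43, 9.35, 9.40 and 9.99 in tumors 1 to 4, against 9.61, 9.85, 7.09 and 8.92 in normals 1 to 4. Normals 1 and 2 lay inside the tumors' range, and normals 3 and 4 below it. The difference was 0.92 ± 0.60 (SE, 95% interval -0.48 to 2.32, adjusted p = 0.273), and 0.33 ± 0.34 without normal 3 (adjusted p = 0.439).

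Pou2af1 encodes OBF-1, a coactivator that works with octamer-binding factors in B cells. At chr9:50992233-50992292 (mm8) it had 12.06, 11.35, 12.29 and 11.87 in tumors 1 to 4, against 11.84, 12.40, 9.73 and 11.27 in normals 1 to 4. Normal 2 was the highest of the 8 arrays and normal 3 the lowest. The difference was 0.59 ± 0.55 (SE, 95% interval -0.68 to 1.86, adjusted p = 0.425), and 0.06 ± 0.32 without normal 3 (adjusted p = 0.889).

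Igj, Tnfrsf17 and Pou2af1 followed each other over the arrays. The root mean square difference from the profile of Igj was 0.260 for Pou2af1 and 0.335 for Tnfrsf17, where the median over all genes was 0.898. The 3 genes with the closest profiles were Evi2a at 0.216, Itgb7, an integrin chain of lymphocytes that home to the gut, at 0.230 and Ly86, a partner of the Toll-like receptor relative Cd180, at 0.241. All 3 had their lowest level in normal 3, at 8.71, 8.75 and 10.02. This likeness is over 8 arrays that share that low array, and it is a description only. Normal 3 was the lowest of all 8 arrays in 5 of the 9 genes studied here, against 13.5% of all genes.

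Sdc1 encodes syndecan-1, or CD138, a heparan sulfate proteoglycan that marks plasma cells and is also made by epithelial cells. Its probe, at chr12:8818585-8818644 (mm8), had 14.50, 14.89, 14.67 and 14.55 in tumors 1 to 4, against 13.80, 13.72, 14.24 and 13.41 in normals 1 to 4. Every tumor was above every normal, and unlike Igj, Tnfrsf17 and Pou2af1 the gene had its highest normal level in normal 3. Means were 14.65 ± 0.18 in the tumors and 13.79 ± 0.34 in the normals (SD, n = 4 each). The difference was 0.86 ± 0.20 (SE, 95% interval 0.39 to 1.33, 1.82-fold, adjusted p = 0.0339), and 1.01 ± 0.17 without normal 3 (adjusted p = 0.00543).

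The call of Sdc1 was near the threshold. Same-numbered tumors and normals deviated together, but so did some tumors and normals of different numbers. With the number as a block the adjusted p was 0.0518. Within the numbers the tumor exceeded the normal by 0.70, 1.17, 0.43 and 1.14, of which the first pair shared slide 1 and the second pair slide 2. With the slide as a block the adjusted p was 0.0929, in a fit where the 4 columns with no matched file, whose slide is not known, formed a level of their own, and leaving out any array other than normal 3 gave adjusted p-values of 0.0643 to 0.0992, with differences of 0.73 to 0.91. Of 16 markers of the epithelium 3 were called lower and 0 higher, or 18.8% and 0%, against 7.14% and 6.64% of all genes. Without normal 3 there were 9 lower and 2 higher, or 56.2% and 12.5%, against 19.7% and 31.7%. Their mean was 15.48 to 15.61 in tumors and 15.77 to 16.02 in normals. The share of plasma cells and of epithelium in the Sdc1 signal was not tested.

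The promoter of Sdc1 is shown because it was the gene called higher. These are the 250 bases before its start in RefSeq (GRCm38.p6, chr12:8771146-8771395, plus strand), with matches to the GC box GGGCGG, searched on both strands, in capitals:
Sdc1: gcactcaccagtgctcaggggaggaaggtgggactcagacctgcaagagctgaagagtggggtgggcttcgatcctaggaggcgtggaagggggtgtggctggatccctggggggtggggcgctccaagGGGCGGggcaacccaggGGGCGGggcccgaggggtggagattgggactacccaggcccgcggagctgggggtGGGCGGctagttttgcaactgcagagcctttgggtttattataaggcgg
The motif occurred 3 times, starting 121, 104 and 49 bases before the start. Of all 32851 promoters of this length, 32.7% hold it. Matches are a description of the letters, and no binding was measured.

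The third element is the transport receptor. Pigr is made by epithelial cells, carries IgA dimers to the lumen and is cut there to leave the secretory component on the antibody. Its probe, at chr1:132679010-132679069 (mm8), had 15.53, 15.53, 15.07 and 16.18 in tumors 1 to 4, against 17.00, 17.82, 15.90 and 17.91 in normals 1 to 4. All tumors lay below normals 1, 2 and 4, and the only overlap was normal 3, which lay below tumor 4. Means were 15.58 ± 0.46 in the tumors and 17.16 ± 0.93 in the normals (SD, n = 4 each). The difference was -1.58 ± 0.47 (SE, 95% interval -2.67 to -0.49, 2.99-fold lower, adjusted p = 0.0635).

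Pigr passed the threshold in several other fits. With the replicate number as a block the adjusted p was 0.0388. The tumor was below its same-numbered normal for 4 of 4 numbers, by -1.47, -2.29, -0.83 and -1.73. Without normal 3 the difference was -1.999 ± 0.32 (adjusted p = 0.00524), and the groups did not overlap. With the slide as a block the adjusted p was 0.134. Epithelial and colonocyte markers moved the same way as Pigr: 9 of 12 colonocyte markers were called lower, and 3 of 16 general epithelial markers, Krt20, Cdh17 and Cdx1, with none higher in either list. Without normal 3 there were 10 colonocyte markers lower and 0 higher, and 9 epithelial markers lower and 2 higher. The lower ones are 83.3% and 56.2%, against 19.7% of all genes. The mean over the colonocyte markers was 12.86 to 14.29 in tumors and 15.36 to 15.63 in normals. Their part in the difference of Pigr was not tested.

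The promoter of Pigr is shown because its E-box, CACGTG, is a known site of the factors USF1 and USF2 in this gene (GRCm38.p6, chr1:130826434-130826683, plus strand, 250 bases before the RefSeq start, E-box in capitals):
Pigr: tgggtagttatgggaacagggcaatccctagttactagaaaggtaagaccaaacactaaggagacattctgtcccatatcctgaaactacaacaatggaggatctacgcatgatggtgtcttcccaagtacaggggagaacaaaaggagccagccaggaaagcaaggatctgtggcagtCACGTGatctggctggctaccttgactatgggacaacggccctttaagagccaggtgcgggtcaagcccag
The E-box started 71 bases before the start, and 6.0% of all 32851 promoters of this length hold this palindrome. The octamer ATGCAAAT, the motif of the factors that the Pou2af1 product works with, was searched on both strands in the promoters of the 6 genes of the set found in the RefSeq table. It was in 0 of the 6 windows (Cd79a, Igj, Tnfrsf17, Pou2af1, Sdc1 and Pigr), where 1.6% of all promoters hold it. Cd79b, Ms4a1 and Blk were not in the table.

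The 3 genes with profiles most like that of Pigr were Lnpep at a root mean square difference of 0.087, Lrrc75b at 0.140 and Gsdmc2 at 0.147, where the median over all genes was 1.141. Lnpep, an aminopeptidase of intracellular vesicles, had 10.19, 10.32, 9.60 and 10.73 in tumors 1 to 4, against 11.73, 12.57, 10.58 and 12.60 in normals 1 to 4. It shared with Pigr the low level in normal 3 among the normals, and it too missed the threshold, at -1.66 (adjusted p = 0.0581).

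Genes around the 9 were read from lists made for this tissue. Of 27 other B cell genes tested, 2 were called higher and 0 lower, or 7.41% and 0%, against 6.64% and 7.14% of all genes. Their median difference was 0.20, where the median of all genes was 0.15. Cd40, the receptor through which T cells license B cells and which macrophages also carry, had 9.34, 9.48, 9.36 and 9.07 in tumors 1 to 4, against 7.51, 8.11, 7.22 and 7.87 in normals 1 to 4 (difference 1.63 ± 0.22 SE, adjusted p = 0.0136). Fcgr2b, the inhibitory Fc receptor of B cells and of myeloid cells, differed by 1.599 ± 0.30 (adjusted p = 0.0213). Both of these genes rose in samples where 9 of 12 macrophage and neutrophil markers also rose (10 of 12 without normal 3, with none lower in either case), with list means of 12.03 to 12.56 in tumors and 9.56 to 10.64 in normals. The part of those cells in Cd40 and Fcgr2b was not tested.

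The lineage factors of B cells named here did not pass, and neither did the kinases. The lineage factor Pax5 differed by 0.63 (adjusted p = 0.118) and the factor Ebf1 by -1.01 ± 0.88 (adjusted p = 0.396). Cd37, a tetraspanin of leukocytes, differed by 0.66 (adjusted p = 0.0622), the kinase Lyn by 0.41 (adjusted p = 0.108) and the kinase Syk by -0.09 (adjusted p = 0.665). The BAFF receptor Tnfrsf13c had 9.76, 8.57, 9.59 and 9.84 in tumors 1 to 4, against 10.18, 10.84, 5.61 and 10.52 in normals 1 to 4. As with Ms4a1, all tumors lay below normals 1, 2 and 4, and normal 3 lay far below every other array.

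Without normal 3 the same list of 27 B cell genes had 6 called higher and 9 lower, or 22.2% and 33.3%, against 31.7% and 19.7% of all genes. The 9 lower genes, named after their values were seen, were Cd22, Bank1, Fcer2a, Ebf1, Cxcr5, Spib, Tnfrsf13c, Fcmr and Blnk, and the 6 higher ones were Cd40, Fcgr2b, Cr2, Btk, Pou2f2 and Cd37. Ms4a1 belonged with the lower ones in this comparison and Cd79a with the higher ones. Ebf1 differed by -1.92 there (adjusted p = 0.0131) and Tnfrsf13c by -1.07 (adjusted p = 0.0348).

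**Figure D3:**
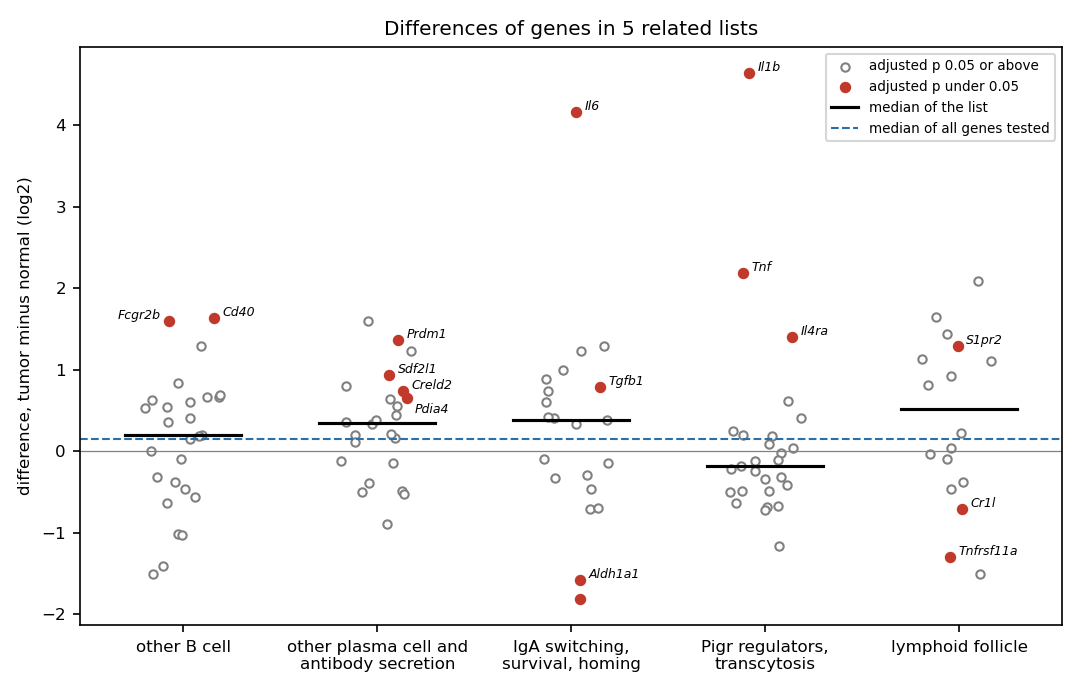
Difference, tumor minus normal on the log2 scale with all 8 arrays, of every tested gene in 5 related lists; filled red points have an adjusted p under 0.05, black bars are list medians, and the dashed line is the median of all genes at 0.15. Of the tested genes 16 are filled, among them Il1b at 4.64 and Il6 at 4.17 at the top and Aldh1a1 at -1.58 near the bottom.

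Of 24 other genes of plasma cells and antibody secretion, 4 were called higher and 0 lower, with a median of 0.35. These are 16.7% and 0%, against 6.64% and 7.14% of all genes. Without normal 3 there were 5 higher and 5 lower, 20.8% each, against 31.7% and 19.7%. Prdm1, which encodes Blimp-1, the factor that drives plasma cell differentiation and that epithelial and T cells also express, had 10.90, 11.30, 10.61 and 10.64 in tumors 1 to 4, against 9.10, 9.66, 10.02 and 9.19 in normals 1 to 4 (difference 1.37 ± 0.26 SE, adjusted p = 0.0219). The other 3 belong to the endoplasmic reticulum of secretory cells in general: Pdia4, a disulfide isomerase, differed by 0.65 ± 0.13 (adjusted p = 0.0229), Sdf2l1, a chaperone cofactor, by 0.94 ± 0.19 (adjusted p = 0.0254) and Creld2, a stress-induced foldase, by 0.74 ± 0.20 (adjusted p = 0.0468, and 0.0777 with the replicate block).

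The factors that act beside Blimp-1 did not pass. Xbp1, which expands the secretory apparatus, averaged 13.56 ± 0.11 in tumors and 13.68 ± 0.34 in normals (SD, n = 4 each, adjusted p = 0.651). Irf4, needed for plasma cells to form, differed by -0.15 ± 0.57 (adjusted p = 0.857). Mzb1, a chaperone of B and plasma cells that helps assemble antibody, had 13.30, 12.14, 13.31 and 12.71 in tumors 1 to 4, against 12.21, 12.02, 9.96 and 10.84 in normals 1 to 4. Its groups overlapped by tumor 2 and normal 1 alone, and the difference was 1.604 ± 0.54 (adjusted p = 0.0871) and 1.17 without normal 3 (adjusted p = 0.0527). The receptor Tnfrsf13b, called TACI, differed by 0.64 ± 0.70 (adjusted p = 0.493).

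Of 21 genes tested for IgA class switching, plasma cell survival and homing, 2 were called higher and 2 lower, 9.52% each against the same 6.64% and 7.14%, with a median of 0.39. Without normal 3 there were 5 higher and 3 lower, or 23.8% and 14.3%, both below the shares of all genes. Il6, a cytokine that supports plasma cells among many other roles, had 10.38, 9.998, 11.96 and 8.58 in tumors 1 to 4, against 5.95, 6.79, 6.75 and 4.75 in normals 1 to 4 (difference 4.17 ± 0.75 SE, adjusted p = 0.0203). Tgfb1, the cytokine that directs switching to IgA, differed by 0.79 ± 0.22 (adjusted p = 0.0498). Aldh1a1, an enzyme that makes retinoic acid, fell by 1.58 (adjusted p = 0.0297). The ligands of the Tnfrsf17 and Tnfrsf13 receptors did not pass: Tnfsf13, or APRIL, differed by -0.29 (adjusted p = 0.374) and Tnfsf13b, or BAFF, by -0.32 (adjusted p = 0.221).

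The homing pair of IgA plasma cells did not pass either. Ccl28, an epithelial chemokine that draws them to the colon, had 9.55, 8.89, 8.91 and 9.40 in tumors 1 to 4, against 10.13, 9.80, 10.14 and 9.52 in normals 1 to 4 (difference -0.71 ± 0.23 SE, adjusted p = 0.0760). Tumor 1 alone lay above a normal, normal 4. The receptor Ccr10 averaged 6.99 ± 0.09 in tumors and 6.66 ± 0.70 in normals (SD, n = 4 each, adjusted p = 0.447).

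Of 27 genes tested that regulate Pigr or move it across the cell, 3 were called higher and 0 lower, with a median of -0.18. Those are 11.1% and 0%, against 6.64% and 7.14% of all genes. Without normal 3 there were 4 higher and 6 lower, or 14.8% and 22.2%, against 31.7% and 19.7% of all genes. The 3 called with all arrays are cytokines or a cytokine receptor known from cultured epithelial cells to induce Pigr or to carry such a signal. Il1b had 16.11, 15.56, 15.51 and 14.69 in tumors 1 to 4, against 9.68, 11.87, 12.51 and 9.25 in normals 1 to 4 (difference 4.64 ± 0.76 SE, adjusted p = 0.0177). Tnf differed by 2.19 ± 0.41 (adjusted p = 0.0212), and Il4ra, the receptor chain for Il4, by 1.40 ± 0.17 (adjusted p = 0.0130). Pigr itself differed by -1.58 in the same comparison.

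Factors that act on the Pigr promoter did not pass in this comparison. Rela, a subunit of NF-kappaB, differed by 0.62 ± 0.17 (adjusted p = 0.0530) with no overlap between the groups. Irf1, through which interferon induces Pigr, differed by -0.42 ± 0.31 (adjusted p = 0.330), and Usf1, a factor of the E-box printed above, by 0.25 ± 0.26 (adjusted p = 0.484). Fcamr, the other receptor that binds IgA and IgM, had 6.59, 6.05, 6.83 and 6.60 in tumors 1 to 4, against 7.499, 7.03, 7.32 and 7.10 in normals 1 to 4. Tumors and normals were apart, with a difference of -0.72 ± 0.20 (adjusted p = 0.0563).

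Genes of lymphoid follicles were read because the wall of the colon holds such follicles in places, and a sample may or may not include one. Of 18 tested, 1 was called higher and 2 lower, or 5.56% and 11.1%, against 6.64% and 7.14% of all genes, with a median of 0.52. Without normal 3 there were 2 higher and 5 lower, or 11.1% and 27.8%, against 31.7% and 19.7%. S1pr2, which confines germinal centre B cells, differed by 1.29 ± 0.23 (adjusted p = 0.0201), Tnfrsf11a, the receptor RANK, by -1.30 ± 0.32 (adjusted p = 0.0377, and 0.0588 with the replicate block) and Cr1l, a complement regulator, by -0.70 ± 0.17 (adjusted p = 0.0365, and 0.0539 with the block). The mean level of this list was 9.85 to 10.40 in tumors and 8.77 to 10.29 in normals, lowest in normal 3, which was also the lowest array for the mean of the other B cell genes, at 8.38 against 9.52 to 9.95 in the other normals. Markers of T cells were called higher in 4 of 12, Cd3d, Lck, Zap70 and Thy1, with none lower. That is 33.3%, against 6.64% of all genes. Without normal 3, 8 of 12 were called higher and none lower, or 66.7% against 31.7%. Their mean level was 9.75 to 10.15 in tumors and 8.69 to 9.49 in normals. Normal 3 was the highest normal, as for the olfactory receptor genes above, and the part of that shift of dim signals was not tested. Across the 5 related lists 16 of 112 genes were called, or 14.3%, which is near the 13.8% of all genes. There were 13 with the replicate block and 4 with the slide as a block, among them Cd40, Il4ra and S1pr2. Each of the 16 also had an adjusted p under 0.05 without normal 3, as did all 2982 genes called with all arrays, and none of the 16 passed without tumor 3 or without normal 4.

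The products of these cells were read from the probes for antibody chains. The arrays hold 136 probes that the files name as immunoglobulin heavy or light chains, of which 132 were tested. Of these 9 were called higher and 0 lower, against 5.62% and 7.83% of all probes. A difference above 0 was seen in 129 of 132, with a median of 1.27. Over all 31871 probes, 16756 were above 0, with a median of 0.05. In 20 of the 132 every tumor was above every normal, against 10.2% of all probes. Without normal 3, 25 were called higher and 0 lower, against 27.4% and 24.3% of all probes. Then 114 were above 0, with a median of 0.69, against 16447 of all 31871 probes and a median of 0.04. The probes belong to a multigene family whose members share sequence, so they can detect each other's transcripts and are not independent of each other.

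The mean level over the 132 probes was 11.18, 10.45, 11.33 and 10.88 in tumors 1 to 4, against 10.55, 10.51, 8.32 and 9.60 in normals 1 to 4. Tumor 2 lay just below normals 1 and 2, and the other 3 tumors lay above every normal. Normal 3 lay below every other array, as it did for 99 of the 132 probes taken singly, against 4787 of all 31871 probes.

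By class, as the files name it, the probes called were 2 of 2 for the IgG1 heavy chain, 5 of 46 for kappa chains and 1 of 52 for heavy chains of no named class. The ninth is a probe named Ighm, for IgM, which the files place on chromosome 6 at chr6:70270592-70270651 (mm8) among the kappa probes, so its chain cannot be settled here. None of the 7 other IgM probes was called, nor any of 2 IgG2c, 5 other IgG, 1 IgD, 1 IgE, 9 lambda or 5 light chain probes of no named type. Medians were 1.35 for the 7 IgM probes and 1.75 for the 8 lambda probes other than that of the constant region.

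The files name no probe plainly as the IgA heavy chain. A probe of Igh-VJ558 described as a hypothetical I alpha polypeptide, at chr12:113712756-113712814 (mm8), had 10.74, 10.01, 10.92 and 10.15 in tumors 1 to 4, against 9.54, 6.96, 10.97 and 7.05 in normals 1 to 4. Normal 3 was the highest array, as it was for Cd79a, and the tumors lay above the other 3 normals. It differed by 1.83 ± 0.89 (SE, adjusted p = 0.189), and by 2.61 without normal 3 (adjusted p = 0.0173). The median levels of the olfactory receptor genes given above were also highest in normal 3, with every tumor above the other 3 normals. The part of that shift in the difference of this probe was not tested. Brighter probes named Igh, with no class named, lay nearby at chr12:113706840-113706899, 113706720-113706779 and 113706582-113706641. Their tumor means were 18.65, 18.66 and 19.43, against 17.82, 17.89 and 18.89 in the normals. The differences were 0.83, 0.76 and 0.54 (adjusted p = 0.251, 0.301 and 0.378), and 0.30, 0.21 and 0.05 without normal 3. Which antibody class they detect was not settled.

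The IgG1 probes, singled out after their values were seen, had the largest differences of the 132. IgG1 is an antibody class more typical of serum and inflamed tissue than of the healthy gut wall. The first, at chr12:113776860-113776919 (mm8), had 13.01, 11.40, 13.76 and 11.55 in tumors 1 to 4, against 10.24, 9.18, 6.95 and 8.05 in normals 1 to 4. It differed by 3.82 ± 0.81 (SE, adjusted p = 0.0266), and by 3.27 without normal 3 (adjusted p = 0.0132). The second, at chr12:113776999-113777058, had 12.58, 11.004, 13.34 and 11.28 in tumors 1 to 4, against 9.99, 8.97, 7.66 and 7.90 in normals 1 to 4. Every tumor was above every normal for both probes. The second differed by 3.42 ± 0.68 (adjusted p = 0.0237), and by 3.10 without normal 3 (adjusted p = 0.0138).

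The called heavy chain probe of no named class, X87228, lies beside them at chr12:113776734-113776793. It had 13.30, 11.79, 13.78 and 11.94 in tumors 1 to 4, against 10.78, 9.35, 11.01 and 8.52 in normals 1 to 4 (difference 2.79 ± 0.69 SE, adjusted p = 0.0387). With the replicate number as a block 7 immunoglobulin probes were called. Of the 9 called without it, 4 were called there too: both IgG1 probes (adjusted p = 0.0499 and 0.0424), X87228 and 1 of the 5 kappa probes, BC080787. With the slide as a block 0 of the 132 were called, and both IgG1 probes had adjusted p-values of 0.0629 to 0.0663.

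**Figure D4:**
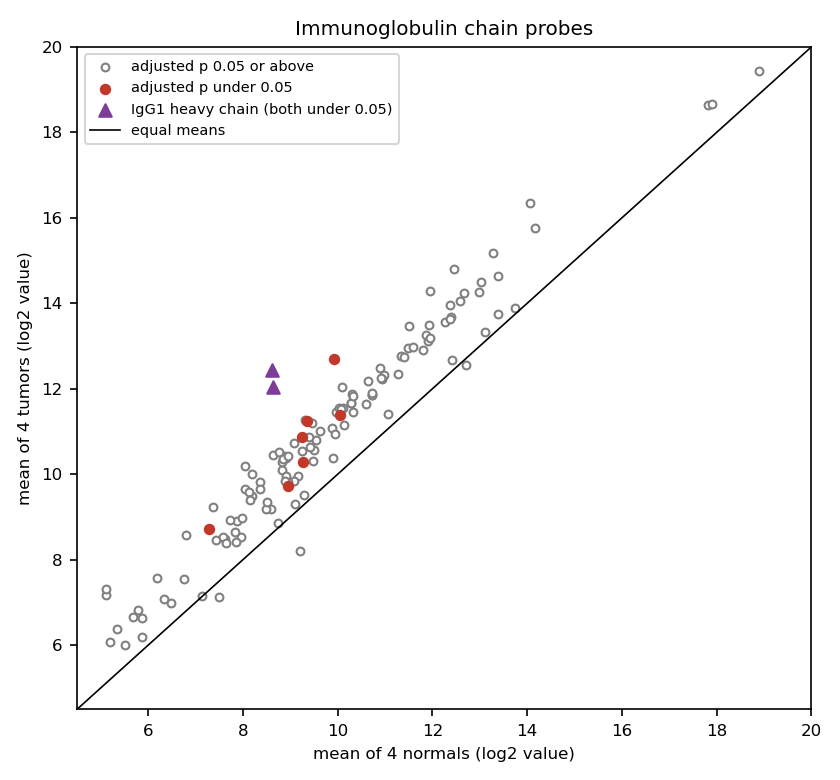
Mean level over 4 tumors (vertical) against the mean over 4 normals (horizontal), both log2, for each of the 132 immunoglobulin chain probes; red points and purple triangles have an adjusted p under 0.05, triangles are the IgG1 heavy chain, and the line marks equal means. Of the points 129 lie above the line, and the triangles lie farthest above it.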

How the data were processed

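RNA of 4 colon tumors and 4 normal colons was measured on 8 one-colour arrays. The deposited value table has 1 column per sample. No label states its scale; from its values and the matching scanner files it holds log2 values, and the authors quantile-normalised them, since every column has the median 8.51. The deposited scanner files give spot intensity, per the file headers extracted with Feature Extraction 9.5.1.1 on array design 014868 (mm8), while the submitters' processing notes name version 10.1.1.1. The table was used because 3 of the 4 matching columns match a file under another sample's name. For the column of tumor 2 that name is normal 4.

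Of 41174 probes, 31871 were kept (at least 4 of 8 columns at or above the detection limit of 5.59). Tumors and normals were set against each other in limma 3.58.1 (R 4.3.3; functions lmFit and eBayes; 2-sided), a step tested on simulated data. Probes were named through RefSeq genes of GRCm38.p6. Same-numbered samples deviated together over all probes (correlations 0.227, 0.390, 0.565 and 0.381 for numbers 1 to 4). The titles' numbers were therefore taken as pairs in a fit beside the main one. The main fit holds the group alone. Other combinations correlated as much (0.313 for tumor 1 with normal 3, 0.392 for tumor 4 with normal 2, 0.379 for tumor 2 with normal 4), so the likeness is not particular to the numbers. Fits with the number as a block are given. Other fits changed the filter, the variance model, the scaling, the slide (where the 4 columns with no matched file share a level of their own), the columns, the source of values and each sample in turn.

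Named genes are the 9 chosen genes, from each related list the 4 genes with the lowest adjusted p among those whose groups did not overlap (fewer where fewer did not overlap), a fixed set of partners, and the 3 genes with the most similar profiles; others are marked as chosen after their values were seen. The genes and lists were chosen with earlier results of these data known. Some genes that this rule names are not reported here.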

Additional observations from a re-analysis of the deposited data

Results flagged for a closer look

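Within each group of 4, the lowest or highest sample was set against the others by Dixon's test at the 95% level, in 54 groups, of which 6 were marked; chance marks about 1 in 20. Cd79b was marked for tumor 2 at 10.62 among the tumors and normal 3 at 8.08 among the normals. Both Ms4a1 probes were marked for normal 3, at 7.66 each, and so was the mean of the 4 B cell surface and signalling genes, for normal 3 at 7.76. The mean over all 9 genes was marked for tumor 2, at 11.32.

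The other marked values come from the 4 scanner files that match no column of the value table, filed under tumors 2, 3 and 4 and normal 1, here on a log2 scale relative to the 75th percentile of the array. All 4 files lay above the highest matched file of a normal for the 2 Igj probes (lowest value 5.64 against 5.12, and 4.90 against 4.42), for Tnfrsf17 (-1.27 against -1.68) and for Pou2af1 (1.07 against 0.98). Their means over small intestine markers were 3.72 to 5.39, against -1.90 to -0.20 in the matched files, and over distal colon genes -5.16 to -2.83, against 0.73 to 1.11. The files' tissue cannot be settled from these values. The files enter no comparison of the report except the fits on the scanner values as filed, given below.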

How the results depend on the processing

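Calls depended both on which arrays entered and on the model. Of the 9 genes, 1 was called with all arrays and also without the filter, with 1 row per gene, with median-centred columns and, as another gene, with the replicate block; the stricter filter and the trended, robust model each called 2, adding Pigr. The slide block, the 4 columns that match a scanner file, and the scanner values as filed (scaled to the 75th percentile or by normexp) each called 0. These 4 settings called 181, 0, 0 and 0 of all genes (251, 0, 0 and 0 probes), 4, 0, 0 and 0 genes of the related lists, and 0 immunoglobulin probes, of which 5 were called without the filter; at an unadjusted p under 0.05 the last 3 had 7431, 632 and 734 probes. Leaving out 1 sample gave 0 to 4 of the 9 genes, 1 to 11135 genes and 1 to 16474 probes in all, 0 to 46 list genes and 0 to 25 immunoglobulin probes, the highest each time without normal 3. Counts of list genes and immunoglobulin probes under these settings were added after seeing the data.

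Pigr kept its difference of -1.58 and passed with the stricter filter (adjusted p = 0.0473), the trended, robust model (0.0387) and the replicate block (0.0388); leaving out 1 sample gave -1.999 to -1.33. It was -1.88 in the 4 matched columns (adjusted p = 0.115) and only -0.118 and -0.194 in the scanner values as filed with the percentile scaling and normexp (adjusted p = 0.9997 and 0.99998). Sdc1 kept 0.86 but did not pass with the replicate block or the slide block, was 0.94 in the 4 matched columns (adjusted p = 0.175), turned to -0.079 and -0.095 in the scanner values as filed, and ran from 0.73 to 1.01 with 1 sample left out. With 1 sample left out the range was 0.23 to 0.80 for Cd79a, -0.44 to 0.98 for Cd79b, -1.17 to 0.25 and -0.82 to -0.04 for the brighter and dimmer Ms4a1 probes and -0.060 to 0.17 for Blk. In the 4 matched columns the sign turned for Blk (-0.18), Cd79b (-0.79), Pou2af1 (-0.41) and the dimmer Igj probe (-0.069). In the scanner values as filed it turned for both Ms4a1 probes, to 0.25 and 0.22 with the percentile scaling and 0.21 and 0.064 with normexp. Results of the replicate block (pairing by number) are not given for the genes with the most similar profiles. Apart from Sdc1, Pigr, Creld2, Cr1l and Tnfrsf11a, the block changed no call among the chosen genes, the list genes picked by rule and partners. The causes were not tested. The fits on the scanner values as filed assign arrays to other samples than the columns do. They also include the 4 files that match no column.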
